A study of Mus musculus with 6 samples.

Results

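The genes of antigen presentation by the major histocompatibility complex (MHC, called H2 in the mouse) were described in RNA-seq of kidney cortex from mice whose proximal tubular epithelium expresses I-PpoI (PT-I-PpoI, labelled PT-I_Ppo-1, 3 libraries) and from wild type mice (3 libraries). I-PpoI, a homing endonuclease, recognises a long DNA sequence and makes a double-strand break there. The comparison asks how the cortex differs when proximal tubule cells carry this enzyme. The members were all genes of the count table whose symbol begins with H2-, together with B2m, Tap1, Tap2, Tapbp, Psmb8, Psmb9, Psmb10, Cd74, Ciita and Nlrc5. This gave 53 of 24421 genes, of which 40 belong to class I, 12 to class II and 1, H2-Ke6, to neither: it encodes a hydroxysteroid dehydrogenase and carries the prefix for its place in the complex. The strain, age and sex of the mice, the promoter that limits I-PpoI to the proximal tubule and the time of its expression are not given in the sources used here. The labels do not say that each library came from its own mouse, so the p-values measure only the spread between these samples.

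Class I molecules are found on nearly all nucleated cells and show peptides made inside the cell to CD8 T cells. A heavy chain pairs with beta-2-microglobulin, and the peptide is cut by the proteasome, carried into the endoplasmic reticulum by the TAP transporter and loaded with the help of tapasin. Class II molecules show peptides from the endocytic route to CD4 T cells, and are made mainly by dendritic cells, macrophages and B cells, with the invariant chain Cd74 holding the groove until the H2-DM chaperone exchanges its remnant for a peptide. Both sets are raised by interferon gamma, class I through the coactivator Nlrc5 and class II through Ciita, which act at a set of promoter boxes that the 2 classes share.

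No member passed the test between the groups. Of 29 members with enough counts to test, 23 had a log2 fold change above 0 (79.3%, against 50.1% of all 13977 genes tested), with a median of 0.11 over 19 class I genes and 0.14 over 9 class II genes, against 0.0 over all genes. Wild type replicate 3 was the lowest of the 6 libraries for 19 of the 29. Of the 29 tested, the 3 members whose groups did not overlap were Psmb8, Psmb10 and Tap2, each higher in all 3 PT-I-PpoI libraries. Over all genes tested, 9.23% were higher without overlap and 7.74% lower, so nothing about the members is read from this count. Among members with too few counts to test, H2-Oa and H2-Bl were higher without overlap and H2-M1 lower. Each of them had 59 or fewer counts in all. The share over all genes with so few counts was not worked out, so nothing is read from them.

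The promoter boxes are shown first. RefSeq promoter windows (GRCm38.p6, 250 bases before to 50 after the start site) matched 37 of the 53 members and 20 of the 29 tested. Stretches of 5 of these tested members follow, with the bases between the start sites of Tap1 and Psmb9, all written 5′ to 3′ on the strand of the named gene and ending at the base before its start site. Capitals mark every match, on either strand, to 4 motifs: the core of the interferon-stimulated response element (GAAA, any 2 bases, GAAA), the gamma-activated site (TTC, any 3 bases, GAA), the CCAAT box (the Y box, read ATTGG on the other strand) and TGACG, the core of the X2 box. The stretches are chr2:122147537-122147686 (plus strand) for B2m, chr17:35262944-35263093 (plus) for H2-D1, chr17:36032702-36032851 (minus) for H2-T23, chr17:34187331-34187555 (plus) for Tap1, chr17:34287824-34287973 (minus) for H2-Aa and chr17:34305717-34305866 (plus) for H2-Eb1.
B2m: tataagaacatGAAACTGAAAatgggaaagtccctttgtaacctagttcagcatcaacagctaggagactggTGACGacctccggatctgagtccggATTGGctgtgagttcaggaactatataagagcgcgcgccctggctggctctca
H2-D1: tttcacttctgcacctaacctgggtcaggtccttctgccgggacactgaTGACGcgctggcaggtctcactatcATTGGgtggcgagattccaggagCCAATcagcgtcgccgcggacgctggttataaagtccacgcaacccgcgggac
H2-T23: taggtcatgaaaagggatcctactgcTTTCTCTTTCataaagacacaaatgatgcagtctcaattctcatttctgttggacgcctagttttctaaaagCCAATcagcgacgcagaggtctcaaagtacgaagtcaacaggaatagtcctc
Tap1: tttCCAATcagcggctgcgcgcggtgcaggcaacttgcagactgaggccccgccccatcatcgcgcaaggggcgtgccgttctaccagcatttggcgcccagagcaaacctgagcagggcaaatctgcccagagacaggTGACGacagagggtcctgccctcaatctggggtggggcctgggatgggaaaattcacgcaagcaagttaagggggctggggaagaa
H2-Aa: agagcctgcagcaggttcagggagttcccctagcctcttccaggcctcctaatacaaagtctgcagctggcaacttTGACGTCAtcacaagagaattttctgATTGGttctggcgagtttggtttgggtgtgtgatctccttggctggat
H2-Eb1: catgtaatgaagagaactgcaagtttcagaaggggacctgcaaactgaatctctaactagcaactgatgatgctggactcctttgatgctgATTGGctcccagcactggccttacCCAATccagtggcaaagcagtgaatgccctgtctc

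The CCAAT box was found in 16 of the 20 windows of tested members, against 37.41% of all 32851 windows. It was in 10 of 13 class I windows and 5 of 6 class II windows. TGACG was found in 8 of 20, against 20.81%. Of these, 7 were among the 13 class I windows and 1, that of H2-Aa, among the 6 class II windows. The response element core was in 2 of the 20, those of B2m and H2-T23, against 3.44% of all windows, and the gamma-activated site in 3 (Psmb8, H2-M3 and H2-DMb2), against 8.3%. In B2m, H2-K1, H2-D1 and H2-M3 a TGACG began 25 bases before an ATTGG, and in H2-Aa 26 bases before, so that genes of both classes carried the pair at nearly the same spacing. This spacing was noticed after the sequences were read, and occurs in 54 of the 32851 windows (0.164%). In the TGACG of H2-Aa the match runs on into its own reverse complement, so both strands are in capitals there. Tap1 and Psmb9 are transcribed away from each other from start sites 226 bases apart, and the stretch printed for Tap1 is all the sequence between them. Their windows share 275 bases, so the CCAAT box and the TGACG of this stretch are counted above for both genes. A match describes the letters of the window and does not show that a factor was bound.

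Not every member could be measured. In all, 13 members, all of class I, had no count in any library, and 11 more (8 of class I and 3 of class II) fell below edgeR's expression filter. Part of the zeros fell on genes with few exon bases of their own, and the counting set no option to keep read pairs that overlap 2 genes. H2-L shares 1060 exon bases with H2-D1 and keeps 4 of its own, and H2-Q6, H2-Q9 and H2-T9 keep 0. H2-Q7 keeps 15 and H2-Q8 keeps 30, with 0 and 1 counts in the 6 libraries together. H2-T22 keeps 119 bases, since it shares 1639 with H2-T9, and had 23 counts. For these 7 genes a low count says little of the level of the transcript.

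**Figure D1:**
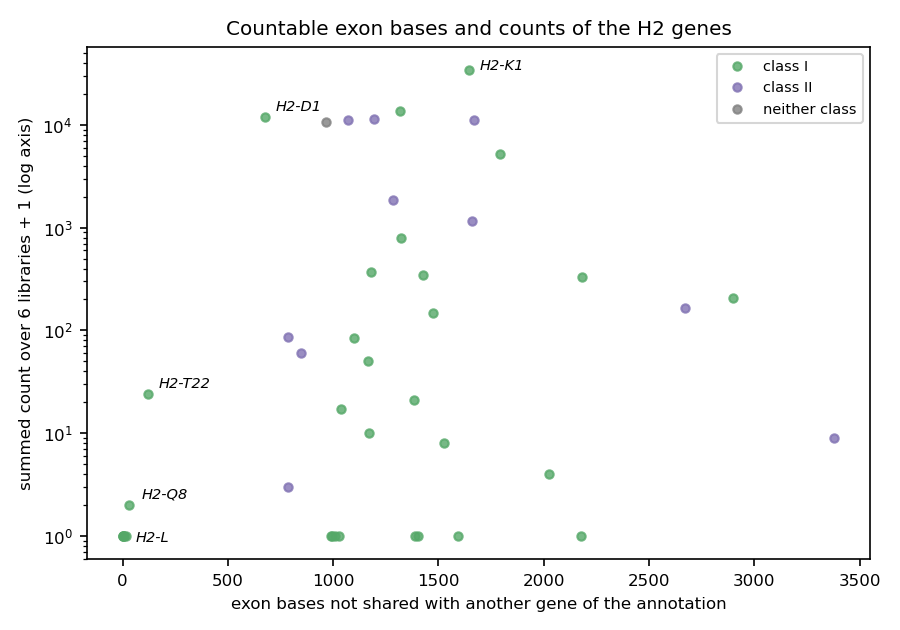
Exon bases of each H2 gene that no other annotated gene shares (x axis) against its count summed over the 6 libraries plus 1 (y axis, log scale), 1 point per gene, coloured by class. The 7 genes with 119 or fewer such bases lie at the left edge with 0 to 23 counts, whereas H2-D1 has 676 and H2-K1 has 1646.

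Other zeros came from genes with ample countable exon. The M region genes H2-M9, H2-M11, H2-M10.1, H2-M10.2, H2-M10.3, H2-M10.4 and H2-M10.6, and H2-T3 of the T region, have between 990 and 2178 unshared bases and no count in any library. In a single library, 0 counts allow a level of up to 0.144 to 0.221 CPM (3 counts of the library total, covering counting error only). H2-M1, H2-M2, H2-M5, H2-M10.5, H2-Q1 and H2-Bl had 3 to 49 counts in all. The class II genes below the filter were H2-Oa with 59 counts, H2-Eb2 with 8 and H2-Ea-ps, the pseudogene of an alpha chain, with 2. H2-Oa shares 200 exon bases with BC051537 on the opposite strand, and the counting did not use strand. The H2 genes are also close paralogs: a read that fits several of them would not be assigned with the stated options, so every H2 heavy chain level here is uncertain for that reason too.

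Per kilobase of unshared exon, B2m stood highest at 363.8 CPM per kb, followed by H2-K1 at 196.0, H2-D1 at 167.9 and Cd74 at 149.9 (means over the 6 libraries). H2-Ke6 was at 104.2 CPM per kb, H2-Aa, H2-T23 and H2-Ab1 at 100.3, 97.9 and 91.4, and H2-Eb1 stood at 64.5. Without the correction for shared exon, H2-D1 would be placed at 65.4 CPM per kb, because only 676 of its 1736 exon bases are unshared. The correction takes these bases as the whole countable length. Read pairs that reach over both shared and unshared exon were not examined, so the level and rank of H2-D1 are approximate. The 2 coactivators were among the lowest of the tested members, Nlrc5 at 0.57 and Ciita at 0.47 CPM per kb. Whole-gene levels below are in CPM, read pairs scaled to a common library total with TMM, a factor that makes libraries comparable.

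**Figure D2:**
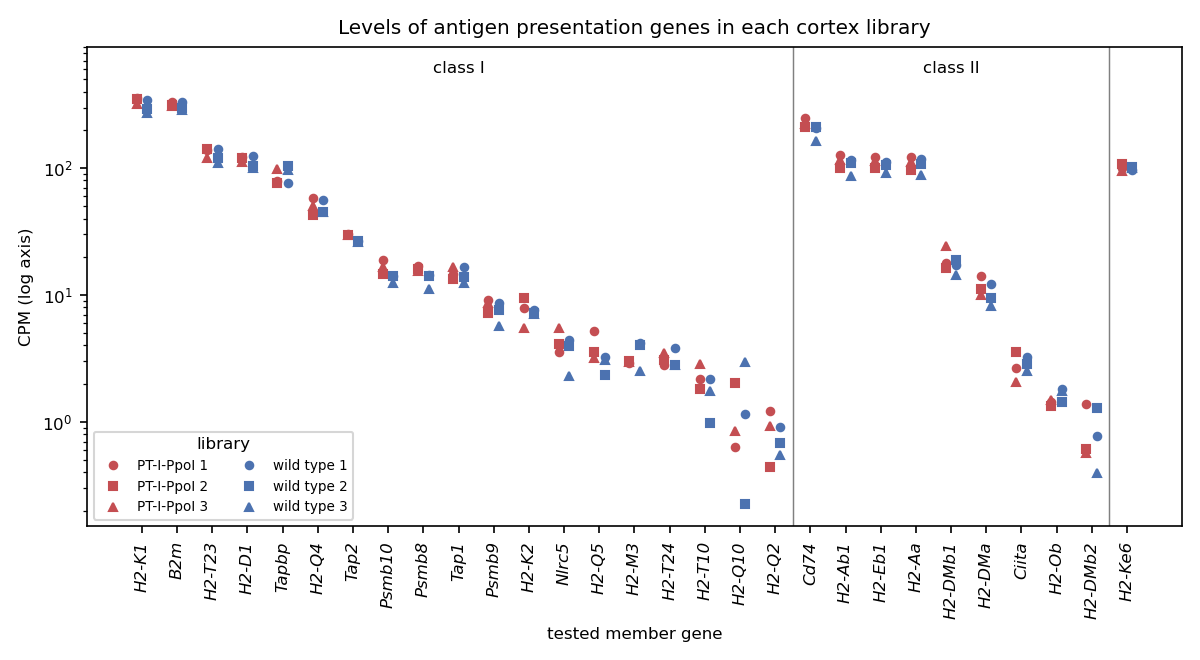
CPM of each tested member in each library (y axis, log scale), with PT-I-PpoI in red on the left of each position, wild type in blue on the right, and a marker shape per replicate. Members are ordered by mean level within class I, class II and neither, and the libraries of the 2 groups overlap for 26 of the 29.

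In the classical class I molecule, the heavy chain genes had log2 fold changes above 0 and did not pass the test. Values are given in the order of replicates 1, 2 and 3. H2-K1 (chr17:33996012-34000333, mm10, as the count table gives it) was at 355, 352 and 318 CPM in PT-I-PpoI and 343, 293 and 274 CPM in wild type. Wild type replicate 1 lay among the PT-I-PpoI libraries, and the other 2 lay below all of them. The log2 fold change was 0.17 ± 0.10 (SE, n = 3 each), with an adjusted p = 0.522 by the quasi-likelihood test of edgeR, adjusted by the Benjamini-Hochberg method over every gene tested, as for all genes here. H2-D1, the other classical heavy chain, was at 121, 120 and 112 CPM in PT-I-PpoI and 124, 104 and 99.8 CPM in wild type. Here wild type replicate 1 was the highest of the 6 libraries, and the log2 fold change was 0.11 ± 0.10 (SE; edgeR adjusted p = 0.654).

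B2m (chr2:122147687-122153082), the light chain that every class I molecule needs, was nearly level. It was at 329, 315 and 310 CPM in PT-I-PpoI and 332, 299 and 288 CPM in wild type, a fold of 1.04 with a 95% interval of 0.906 to 1.19 (edgeR adjusted p = 0.817). The ratio of B2m to H2-K1, both per kb of exon, was 1.79 ± 0.0761 in PT-I-PpoI and 1.94 ± 0.08 in wild type (SD, n = 3 each), given as a description with no test.

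Of the genes that carry and load the peptide, only Tap2 had groups that did not overlap. Tap2, a chain of the TAP transporter, was at 30.1, 29.6 and 29.6 CPM in PT-I-PpoI and 26.9, 26.4 and 26.0 CPM in wild type, so the spread within each group was smaller than the gap between them. The log2 fold change was 0.17 ± 0.08 (SE), with an unadjusted p = 0.0533 and an edgeR adjusted p = 0.418. Its partner Tap1 did not share this pattern: the libraries interleaved, at 13.3 to 16.5 CPM for PT-I-PpoI and 12.4 to 16.6 CPM for wild type, with a log2 fold change of 0.05 whose sign depended on single libraries. Tapbp, the gene of tapasin, had a log2 fold change of -0.14, and its levels followed the form of the library name rather than the group, as described below.

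The immunoproteasome subunits replace the constitutive catalytic subunits of the proteasome when cells meet interferon, and change which peptides are cut. Psmb10 (beta 2i) was at 18.7, 14.7 and 16.7 CPM in PT-I-PpoI and 14.1, 14.2 and 12.5 CPM in wild type. All 3 PT-I-PpoI libraries lay above all 3 of wild type, but replicate 2 only narrowly. The log2 fold change was 0.30 ± 0.12 (SE), a 1.23-fold difference with a 95% interval of 1.01 to 1.49 (unadjusted p = 0.0398, edgeR adjusted p = 0.397). Psmb8 (beta 5i) was at 16.8, 16.0 and 15.6 CPM in PT-I-PpoI and 14.5, 14.0 and 11.1 CPM in wild type, a log2 fold change of 0.29 ± 0.13 (SE; unadjusted p = 0.046, edgeR adjusted p = 0.409). Its groups did not overlap either. Psmb9 (beta 1i) ranged from 7.23 to 9.16 CPM for PT-I-PpoI and from 5.73 to 8.72 CPM for wild type, and its groups overlapped (log2 fold change 0.18, edgeR adjusted p = 0.702).

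Each inducible subunit was set against the constitutive subunit it replaces, per kb of exon. Psmb8 over Psmb5 was 0.0855 ± 0.0105 in PT-I-PpoI and 0.0645 ± 0.0105 in wild type (SD, n = 3 each), and all 3 PT-I-PpoI libraries lay above the highest wild type library. Psmb10 over Psmb7 was 0.0747 ± 0.0098 against 0.0592 ± 0.00392, again without overlap. Psmb9 over Psmb6 was 0.0586 ± 0.00729 against 0.0561 ± 0.0143, with overlap. In every library these ratios were 0.0958 or less. The ratios rest on the same Psmb8 and Psmb10 counts as the fold changes and were not tested. They also carry the constitutive subunits, with log2 fold changes of -0.11 for Psmb5, 0.10 for Psmb6 and -0.04 for Psmb7. In bulk cortex a ratio does not show that the 2 subunits of a pair lie in the same cells.

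**Figure D3:**
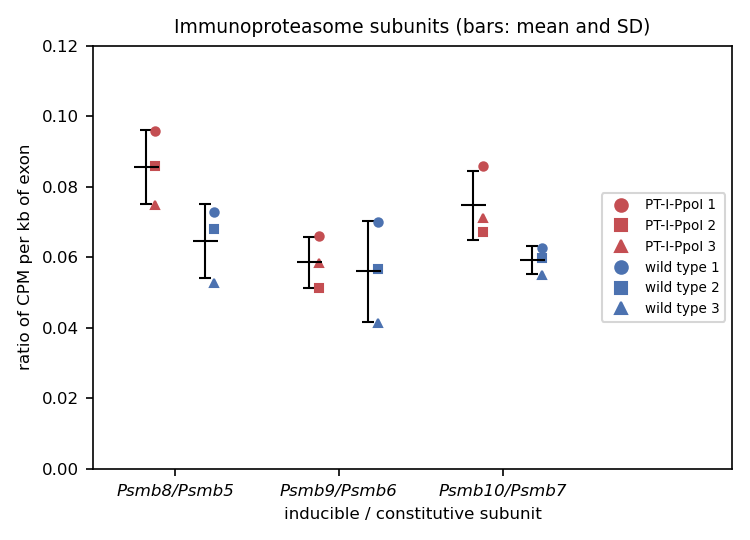
Ratio of each inducible proteasome subunit to its constitutive counterpart, both in CPM per kb of exon (y axis), for 3 pairs (x axis), with 1 point per library, the mean as a horizontal bar and the SD as the error bar. The PT-I-PpoI libraries (red) lie above all wild type libraries (blue) for Psmb8/Psmb5 and Psmb10/Psmb7, and among them for Psmb9/Psmb6.

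The non-classical class I heavy chains gave no common direction. H2-T23, which encodes Qa-1 and shows leader peptides of other class I chains to NK cell receptors, was the most abundant, at 134 ± 11.5 CPM for PT-I-PpoI and 124 ± 15.5 CPM for wild type (SD, n = 3 each), and the log2 fold change was 0.11. H2-Q4 followed at 50.3 ± 8.0 and 48.7 ± 6.05 CPM (log2 fold change 0.04). H2-Q5 was at 5.19, 3.53 and 3.19 CPM in PT-I-PpoI and 3.23, 2.35 and 3.09 CPM in wild type. PT-I-PpoI replicate 1 stood apart from the other libraries, and the log2 fold change was 0.45 ± 0.24 (SE; edgeR adjusted p = 0.468). H2-T10, a ligand of some gamma delta T cells, was at 2.17, 1.82 and 2.83 CPM in PT-I-PpoI and 2.17, 0.98 and 1.74 CPM in wild type (log2 fold change 0.43 ± 0.32, edgeR adjusted p = 0.589). H2-M3, which shows peptides that begin with formyl-methionine, lay the other way at 2.97 ± 0.0621 against 3.58 ± 0.906 CPM (SD, n = 3 each), and its log2 fold change was -0.26. The remaining members of this kind were low or level: H2-T24 had a log2 fold change of -0.03, H2-Q2 of 0.26 and H2-Q10 of -0.37. H2-K2, a class I pseudogene, had one of 0.07. H2-Q10 shows how wide such estimates are, since wild type ran from 0.227 to 2.99 CPM and the 95% interval of its fold from 0.254 to 2.37.

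Nlrc5, the class I coactivator, was at 3.55, 4.14 and 5.46 CPM in PT-I-PpoI and 4.38, 3.94 and 2.29 CPM in wild type. The groups overlapped, with PT-I-PpoI replicate 3 highest and wild type replicate 3 lowest, and the log2 fold change was 0.31 ± 0.28 (SE; edgeR adjusted p = 0.667). It was 0.06 without wild type replicate 3 and 0.51 without wild type replicate 1.

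Among the class II genes, Cd74 had the smallest p and did not pass the test. Cd74 was at 250, 209 and 221 CPM in PT-I-PpoI and 208, 211 and 163 CPM in wild type. PT-I-PpoI replicate 1 was highest and wild type replicate 3 lowest, and the other 4 libraries lay between 208 and 221 CPM. The log2 fold change was 0.23 ± 0.12 (SE), with an unadjusted p = 0.092 and an edgeR adjusted p = 0.468. Its exons share 12 bases with those of Mir5107.

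The 3 classical chain genes ranked the libraries in nearly the same order. H2-Ab1, the beta chain of the I-A molecule, was at 127, 101 and 115 CPM in PT-I-PpoI and 116, 109 and 86.3 CPM in wild type (log2 fold change 0.14 ± 0.13, edgeR adjusted p = 0.664). H2-Aa, its alpha chain, was at 122, 96.2 and 112 CPM in PT-I-PpoI and 118, 107 and 88.7 CPM in wild type (log2 fold change 0.07 ± 0.13, edgeR adjusted p = 0.844). H2-Eb1, the beta chain of I-E, was at 122, 101 and 114 CPM in PT-I-PpoI and 112, 105 and 91.2 CPM in wild type (log2 fold change 0.13 ± 0.10, edgeR adjusted p = 0.632). For each of them PT-I-PpoI replicate 1 was the highest library and wild type replicate 3 the lowest, with the groups overlapping between. The ratio of H2-Aa to H2-Ab1 per kb stayed between 1.07 and 1.15 in the 6 libraries, while H2-Ab1 alone ran from 86.3 to 127 CPM. Cd74 over H2-Ab1 was 1.67 ± 0.0707 in PT-I-PpoI and 1.58 ± 0.0614 in wild type (SD, n = 3 each; no test).

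The genes that edit the class II peptide were lower in level and gave mixed signs. H2-DMa, the alpha chain of the DM chaperone, was at 14.2, 11.1 and 9.99 CPM in PT-I-PpoI and 12.2, 9.39 and 8.22 CPM in wild type (log2 fold change 0.25 ± 0.19, edgeR adjusted p = 0.602). H2-DMb1, a beta chain of DM, was at 17.9, 16.3 and 24.2 CPM in PT-I-PpoI and 17.3, 18.9 and 14.4 CPM in wild type (log2 fold change 0.20 ± 0.17, edgeR adjusted p = 0.627). H2-DMb2, the second beta chain gene, was at 0.85 ± 0.456 CPM for PT-I-PpoI and 0.819 ± 0.446 CPM for wild type, with a log2 fold change of 0.15. H2-Ob, the beta chain of the H2-O inhibitor of DM, which is made mainly in B cells, was at 1.43, 1.32 and 1.49 CPM in PT-I-PpoI and 1.83, 1.44 and 1.74 CPM in wild type, a log2 fold change of -0.26 ± 0.24 (SE; edgeR adjusted p = 0.672).

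Ciita, the class II coactivator, was at 2.65, 3.59 and 2.06 CPM in PT-I-PpoI and 3.28, 2.88 and 2.54 CPM in wild type. The wild type libraries lay inside the range of PT-I-PpoI (log2 fold change -0.06 ± 0.25, edgeR adjusted p = 0.938). H2-Ke6, which takes no part in presentation, was at 101 ± 6.76 CPM for PT-I-PpoI and 99.6 ± 2.51 CPM for wild type (log2 fold change 0.03).

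**Figure D4:**
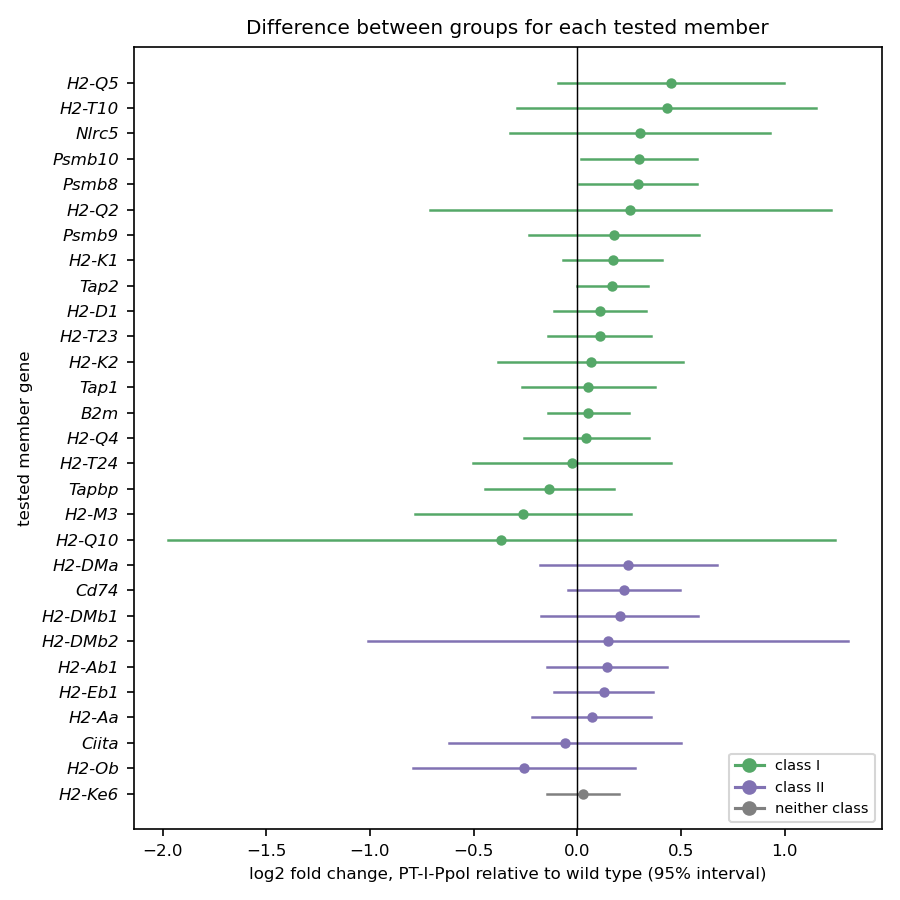
Log2 fold change of each tested member, PT-I-PpoI relative to wild type (x axis), with its 95% interval as a line, grouped and coloured by class and sorted within it. Points of 23 of the 29 members lie right of 0, and only the intervals of Psmb10 and Psmb8 exclude 0 before adjustment.

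Counts of calls are set beside those over all genes. After adjustment 0 of 29 members were higher and 0 lower by edgeR, against 0.136% and 0.0% of the 13977 genes. At an unadjusted p under 0.05, 2 were higher (Psmb8 and Psmb10) and 0 lower, against 6.42% and 5.61% of all genes. Without overlap between the groups, 3 were higher and 0 lower, against 9.23% and 7.74%. DESeq2 called 0 members, against 1.32% of all genes, and had 0 at an unadjusted p under 0.05, against 7.97%. The edgeR counts before adjustment lie near the background of all genes, and nothing about the members is read from them. The 95% interval of the fold reached 1.49 for Psmb8 and ran from 0.8 to 1.91 for Nlrc5.

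Many members ranked the same libraries highest and lowest. Wild type replicate 3 was the lowest of the 6 libraries for 19 of the 29 members (65.5%), as it was for 16.8% of all genes, and PT-I-PpoI replicate 1 was the highest for 14 (48.3%, against 15.3% of all genes) and the lowest for 0. The mean of the centred log2 levels of the class II genes was 0.20 in PT-I-PpoI replicate 1 and -0.30 in wild type replicate 3, and lay between -0.06 and 0.10 in the other 4 libraries. For class I the order of these means differed: 0.10 in PT-I-PpoI replicate 1 and in wild type replicate 1. The class I mean was -0.17 in wild type replicate 2 and -0.14 in wild type replicate 3. Wild type replicate 2 was the lowest library for only 3 class I genes, H2-Q5, H2-Q10 and H2-T10, whose mean levels were 1.32 to 3.43 CPM. Wild type replicate 3 was the lowest for 12 of the 19. Without wild type replicate 3 the medians of class I and class II were 0.05 and 0.04, and of 31 members then tested 0 were higher and 1, H2-M3 (log2 fold change -0.47), lower at an unadjusted p under 0.05, against 3.97% and 2.84% of all genes. Without wild type replicate 1 they were 0.21 and 0.21, and 4 of 31 were higher and 0 lower at that level, against 8.04% and 7.27%. No member passed after adjustment in either case.

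Names of the libraries come in 2 forms, hyphenated before the last number (PT-I-PpoI replicate 3 and wild type replicates 2 and 3) or with no hyphen (PT-I-PpoI replicates 1 and 2 and wild type replicate 1), which the labels do not call a batch. Over all members the mean of the centred log2 levels was 0.128, 0.004 and 0.046 in PT-I-PpoI replicates 1, 2 and 3. In wild type it was 0.096, -0.09 and -0.184. So PT-I-PpoI replicate 3, with a hyphen, lay above replicate 2, without one. In a fit with both terms, most members were lower with a hyphen. There 26 of the 29 lay below 0 (89.7%, against 51.4% of all genes), with a median log2 difference of -0.12, against -0.01 over all genes. H2-T23, H2-K1, H2-DMa and H2-D1 were lower at an unadjusted p under 0.05 and 1 member, Tapbp, higher, against 9.01% and 9.82% of all genes, with H2-T23 at -0.25 ± 0.07 (SE; edgeR adjusted p = 0.094). Tapbp alone passed this test and in the other direction, at 0.37 ± 0.07 (SE; edgeR adjusted p = 0.0274), where 3.06% of all genes passed. It was at 78.5, 76.5 and 76.3 CPM in the libraries without a hyphen and 97.7, 104 and 97.5 CPM in those with one, so its 6 values fell into 2 sets that cross the groups.

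Within the forms of the name, the medians differed in sign. Differences within a form are of mean log2 CPM with a prior count of 2. Without a hyphen, where wild type is replicate 1 alone, the median was -0.04 for class I and -0.02 for class II, and 12 of 29 members lay above 0 (41.4%, against 49.5% of all genes). With a hyphen, where PT-I-PpoI is replicate 3 alone, the medians were 0.17 and 0.20, and 21 of 29 lay above 0 (72.4%, against 51.0%). Psmb10 was higher in both (0.23 and 0.33), as were Psmb8 (0.18 and 0.32) and Tap2 (0.15 and 0.17). Their groups did not overlap, so these signs were fixed in advance and add nothing. Cd74 (0.14 and 0.25), H2-Q5 (0.40 and 0.24), H2-K1 (0.04 and 0.16) and H2-DMa (0.04 and 0.19) were also above 0 in both. Ciita, H2-Ob and H2-M3 were below 0 in both. The share of all genes with the same sign in both was not worked out. H2-Ab1 was at -0.03 and 0.25, and Nlrc5 at -0.19 and 0.84. With the name form as a term, 0 members passed, where 0.458% of all genes did.

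**Figure D5:**
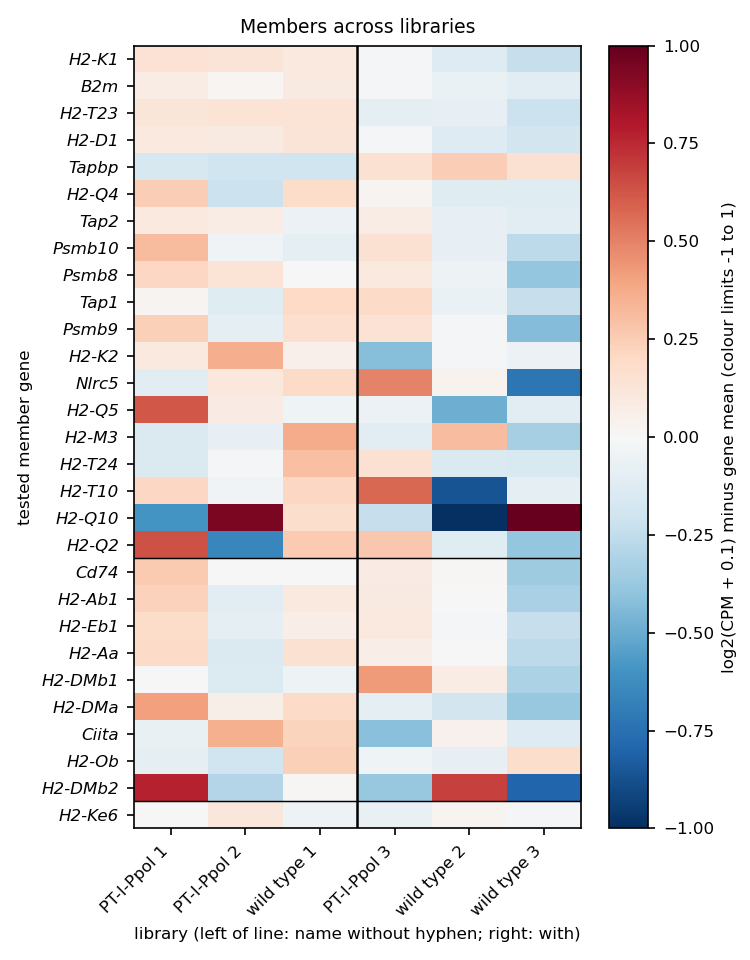
Log2(CPM + 0.1) of each tested member minus its mean over the 6 libraries, as colour (limits -1 to 1), with libraries in columns split by the form of their name and genes in rows by class and level. The column of wild type replicate 3 is blue for most genes of both classes, PT-I-PpoI replicate 1 is red for most, and Tapbp changes colour at the line between the forms.

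Genes that work with the members were taken as fixed lists. None of the 12 class I partners passed (0 higher and 0 lower), and their median log2 fold change was -0.02. Psme1 and Psme2 encode the subunits of PA28, the activator that caps the proteasome and is raised by interferon. Psme1 was at 77.1 ± 6.74 CPM for PT-I-PpoI and 61.5 ± 2.4 CPM for wild type, without overlap (SD, n = 3 each), and the log2 fold change was 0.33 ± 0.09 (SE; unadjusted p = 0.00423, edgeR adjusted p = 0.222). Without PT-I-PpoI replicate 3 its adjusted p was 0.0335, in a fit that called 625 genes. Psme2 had a log2 fold change of 0.21 ± 0.09 (SE; edgeR adjusted p = 0.415) and Erap1, the peptidase that trims peptides to length, of -0.26 ± 0.15 (edgeR adjusted p = 0.495). Within the forms of the library name Psme1 was at 0.33 and 0.22, and Psme2 at 0.20 and 0.10. For Psme1 both signs were fixed in advance, since its groups did not overlap.

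None of the 15 class II partners passed either, and their median was -0.03. March8, a ubiquitin ligase of membrane proteins that can target class II, was lower at 184 ± 13.1 against 217 ± 6.08 CPM without overlap (SD, n = 3 each), and its log2 fold change was -0.24 ± 0.08 (SE; edgeR adjusted p = 0.344). Rfxank, a subunit of the RFX complex that binds the X box, was higher without overlap at 20.2 ± 0.103 against 17.1 ± 0.346 CPM (SD, n = 3 each), and its log2 fold change was 0.23 ± 0.09 (SE; edgeR adjusted p = 0.362). Ctsl, the gene of a protease that acts on the invariant chain, had a log2 fold change of -0.17.

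The interferon gamma list had 16 genes tested, 0 called in either direction, and a median of 0.06. Irf1, a transcription factor at class I promoters, was at 24.3 ± 2.68 CPM for PT-I-PpoI and 18.8 ± 3.95 CPM for wild type, with overlap (log2 fold change 0.37 ± 0.16, edgeR adjusted p = 0.404). Irf9 was at 22.5 ± 4.33 and 17.8 ± 2.05 CPM (log2 fold change 0.34 ± 0.15, edgeR adjusted p = 0.414). Socs1, the feedback inhibitor of the pathway, had a log2 fold change of -0.62 ± 0.37 (SE; edgeR adjusted p = 0.514).

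Of the 6 tested class I-like genes outside the complex, 0 passed and the median was 0.01. Mr1, which shows vitamin B metabolites to MAIT cells, was higher without overlap at 7.97 ± 0.83 against 6.0 ± 0.732 CPM (log2 fold change 0.41 ± 0.15, SE; edgeR adjusted p = 0.36). Procr, the endothelial protein C receptor, had a log2 fold change of 0.97 ± 0.36 (SE; edgeR adjusted p = 0.362). Azgp1, a secreted class I-like glycoprotein, was at 122 ± 51.2 CPM for PT-I-PpoI and 208 ± 5.18 CPM for wild type, a log2 fold change of -0.77 ± 0.26 (SE; edgeR adjusted p = 0.329). The T cell partner list, with 7 genes tested, had 0 calls and a median of -0.11.

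Markers of the cells that could carry these transcripts ranged widely in level and gave no call. Those of the macrophage list had means over the 6 libraries from 0.77 CPM for Fcgr1 to 54.4 CPM for Csf1r. In bulk cortex, fewer cells of a type and less RNA per cell cannot be told apart. Ptprc, the leukocyte antigen CD45, was at 6.15 ± 0.66 CPM for PT-I-PpoI and 7.05 ± 0.793 CPM for wild type (log2 fold change -0.20). Adgre1, the macrophage antigen F4/80, was at 3.75 ± 0.975 and 3.68 ± 0.771 CPM (log2 fold change 0.03), and Itgax, which marks dendritic cells, at 3.12 ± 0.826 and 3.09 ± 0.473 CPM (log2 fold change 0.02). The signs of these 2 small differences turned under some alternatives. Summed levels overlapped between the groups for all leukocyte lists. The macrophage list ran from 192 to 206 CPM for PT-I-PpoI and from 176 to 210 CPM for wild type, with wild type replicate 1 highest and wild type replicate 3 lowest. The leukocyte list ran from 38.8 to 52.4 and from 41.5 to 47.9 CPM, and the dendritic cell list from 13.6 to 15.9 and from 12.2 to 15.5 CPM. PT-I-PpoI replicate 1, highest for most class II genes, was highest for the leukocyte list, at 205 CPM inside the range for the macrophage list and the lowest of its group for the dendritic cell list. Wild type replicate 3 was lowest for the macrophage and dendritic cell lists, but PT-I-PpoI replicate 2 was lowest for the leukocyte list. The part of these cells in the member levels was not tested.

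Lymphocyte markers were low. Of those in the count table, 4 of 7 B cell genes and 4 of 8 T and NK cell genes had enough counts to test. Cd79a, a chain of the B cell receptor complex, was at 1.25 ± 0.42 CPM for PT-I-PpoI and 1.66 ± 0.559 CPM for wild type, and Cd3e, a chain of the T cell receptor complex, at 0.437 ± 0.375 and 0.958 ± 0.411 CPM, neither past the test. The B cell list summed to between 2.76 and 6.19 CPM for PT-I-PpoI and between 4.16 and 7.42 CPM for wild type, with a median of -0.57 (log2 fold change) over the 4 genes that could be tested. Of those 4, 1 lay above 0, Cd79b at 0.37 ± 0.34 (SE; edgeR adjusted p = 0.671). The T and NK cell list summed to between 5.57 and 8.52 CPM for PT-I-PpoI and between 4.38 and 8.62 CPM for wild type. In that list Lck had a log2 fold change of 0.63 ± 0.28 (SE; edgeR adjusted p = 0.415), against -1.14 ± 0.60 for Cd3e (edgeR adjusted p = 0.467). Among the other smallest p of the myeloid lists, Csf1r, the receptor for macrophage colony-stimulating factor, had a log2 fold change of 0.21 ± 0.09 (SE; edgeR adjusted p = 0.41), and Zbtb46, of classical dendritic cells, 0.38 ± 0.20 (edgeR adjusted p = 0.468). Mrc1 of the macrophage list (-0.36) and Clec10a of the dendritic cell list (-0.39) lay the other way. The median was 0.04 over 12 macrophage genes, 7 of them above 0. It was 0.11 over 7 dendritic cell genes, 5 of them above 0. The lymph node and fat list summed to between 2.65 and 8.22 CPM for PT-I-PpoI and between 4.03 and 15.1 CPM for wild type, with wild type replicate 1 apart from the rest. Of its genes Adipoq, of fat cells, ran from 0.582 CPM in PT-I-PpoI replicate 1 to 9.87 CPM in wild type replicate 1, Cr2 was at 1.41 ± 0.0836 and 0.97 ± 0.329 CPM without overlap and without passing the test, and Ccl21a had no count in any library.

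Markers of resident kidney cells are given beside these values. Libraries held 13582540 to 20861021 read pairs, and all 8 proximal tubule markers were abundant, the lowest with a mean of 300.0 CPM. Those 8 markers had a median log2 fold change of -0.24 (0 called), while 6 thick ascending limb markers had 0.44 and 8 collecting duct markers 0.44. Of the last 2 lists 1 gene each rose by edgeR, Ptger3 with a log2 fold change of 0.97 (adjusted p = 0.0356) and Avpr2 with 0.87 (adjusted p = 0.0385). Ptger3 missed the threshold (edgeR adjusted p = 0.0836 to 0.166) without PT-I-PpoI replicate 1 or 2 or wild type replicate 1 or 3, and Avpr2 (edgeR adjusted p = 0.102 to 0.189) without any 1 library other than PT-I-PpoI replicate 3. All 8 endothelial markers lay above 0, with a median of 0.17 and summed levels of 440 to 477 CPM for PT-I-PpoI and 384 to 441 CPM for wild type. All 6 podocyte markers lay above 0 as well, with a median of 0.18. In size these medians are larger than those of class I and class II, and their part in the member levels was not tested.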

How the data were processed

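The authors deposited raw counts of read pairs for 24421 genes, and regularized log2 (rlog) values that served here only in an alternative test. Per the labels' protocols, HISAT2 mapped the reads. Per the file headers, featureCounts 1.5.2 counted those over exons, took only pairs with 2 mapped mates, and had no option for strand, for read pairs that map to several places or for those that overlap several genes. The header names a UCSC mm10 annotation and the labels' protocols mm9. By symbol, 99.34% of 23204 genes overlapped their GRCm38.p6 (mm10) position and 11.75% of 20836 their NCBIM37 (mm9) position, so coordinates are given as mm10. DESeq2 1.28.13 is named in the submitters' processing notes.

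Counts were tested in R 4.3.3 with edgeR 4.0.16: filterByExpr with its defaults (minimum count 10), TMM factors, the quasi-likelihood test with the group alone, two-sided, Benjamini-Hochberg adjustment over the 13977 genes kept, and a threshold of 0.05. The procedure was tested on simulated data. Errors of log2 fold changes are SE and those of CPM are SD. Totals of 13582540 to 20861021 read pairs make 3 counts worth 0.144 to 0.221 CPM. Alternatives were DESeq2 size factors, upper-quartile factors, no filter, at least 1 CPM in 3 libraries, DESeq2 1.42.0, limma-voom and limma 3.58.1 on the rlog values, the replicate number as a block, the form of the library name as a term, and each library left out in turn. Promoter sequences and start sites are from RefSeq (GRCm38.p6).

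The members and gene lists were chosen with earlier results of these data known. Values per library are given for B2m, Cd74, Nlrc5, Ciita, H2-K1, H2-D1, H2-Aa, H2-Ab1, H2-Eb1 and up to 6 members of each class with the smallest p, and other tested members get a level or fold change. Of each other list, up to 3 genes with the smallest p and the defining markers Ptprc, Adgre1, Itgax, Cd79a and Cd3e are named. Cd79b is named as the only tested B cell gene above 0. One further marker is not reported here.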

Additional observations from a re-analysis of the deposited data

How the results depend on the processing

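With all 6 libraries, none of the 9 alternatives called a member: adjusted p-values of the member with the smallest p ranged from 0.35 to 0.527. The medians of both classes stayed above 0 throughout, at 0.05 (class I, name form as a term) to 0.17 (class I, no filter) and 0.07 (class II, limma on rlog values) to 0.16 (class II, upper-quartile factors). Leaving out each library in turn gave 0.05 to 0.21 for class I and 0.04 to 0.23 for class II, the lowest without wild type replicate 3, and called 0 members.

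Over all genes, edgeR called 19, against 14 with DESeq2 size factors, 47 with no filter, 185 by DESeq2, 14 by limma-voom, 1 by limma on rlog values, 64 with a term for the name form, and 0 to 625 without 1 library. Libraries with the same replicate number in their sample titles did not all deviate together (correlations 0.219, -0.128 and 0.163), so these numbers were not taken as pairs. By the numbers in the library names only 2 are shared between the groups, with correlations of 0.219 (both replicates 1) and 0.179 (PT-I-PpoI replicate 3 with wild type replicate 2), each within 1 form of the name. The replicate block called 40 genes and 0 members, with medians of 0.117 for class I and 0.128 for class II.

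Some signs turned. In the fit that held the form of the name, H2-K2 was at -0.072, H2-Q4 at -0.002 and Adgre1 at -0.012. Itgax was at -0.006 by limma-voom and -0.007 with the replicate block. Without 1 library in turn, log2 fold changes ran from -0.29 to 0.10 for Ciita, -0.13 to 0.25 for H2-K2, -0.026 to 0.072 for H2-Ke6, -0.41 to 0.56 for H2-DMb2, -0.044 to 0.18 for Tap1, -0.039 to 0.17 for H2-Aa, -0.11 to 0.58 for H2-Q2, -0.079 to 0.15 for H2-Q4, -1.05 to 0.65 for H2-Q10, -0.11 to 0.15 for H2-T24, -0.13 to 0.23 for Adgre1 and -0.10 to 0.23 for Itgax. The cause was not tested. Other members kept their sign and moved in size, as Nlrc5 (0.06 to 0.51), Psmb9 (0.018 to 0.33), H2-DMb1 (0.028 to 0.32), H2-Ab1 (0.026 to 0.23), H2-T23 (0.029 to 0.21) and B2m (0.012 to 0.12). H2-Q10 was at 0.227 CPM, scaled with TMM, in its lowest library, wild type replicate 2. There 3 counts of the library total, before TMM, are worth 0.221 CPM, so the value lay at about that level.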
